A study of Homo sapiens with 4 samples.

Results

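The subject here is 150 stretches of the autosomes, far from the centromeres, at which a peak was called in every one of the 4 ChIP-seq libraries of the study. OECM1, an established line from a cancer of the head and neck, was used throughout. Control cells had received the construct labelled Cas9-ctrl and edited cells the one labelled ARID3B-Cas9, and from each kind the chromatin was precipitated once for ARID3B and once for KDM4C. Sample titles abbreviate the edited cells as KD, while the title of the series calls them knockout, and the labels do not say whether they were 1 clone or a pool. Each of the 4 groups held 1 library, and the peaks were called without an input library. A peak list does not show how much ARID3B remained after editing. All values are therefore descriptions of single libraries, no test is given, and the exact 95% intervals cover counting error only.

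Rows of the 4 peak lists that shared at least 1 bp were merged, which gave 9138 regions, and 422 of these held a row from every list. Of the 422, 73 lay on chromosome X or Y and 199 lay on autosomes within 3 Mb of a centromere gap of the build GRCh37. The remaining 150 were thus chosen by measured values, the caller's scores past its cutoff in every list, and by position. Since presence in all 4 lists selected them, their high peak scores and their sharing between antibodies and between kinds of cells are not findings.

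ARID3B belongs to the family of proteins with an AT-rich interaction domain, which contacts DNA, and KDM4C is a demethylase that removes methyl groups from lysines of histone H3, among them a mark of silent chromatin. Both proteins have been described as partners at genes linked to stemness in head and neck cancer, and the title of the series names the sites of ARID3B, and KDM4C in the edited cells, as its subject. A different kind of region is also known to every ChIP-seq user. Some stretches of the human genome gather tags in most libraries whatever the antibody, often because copies of a repeat are missing from the genome build, and published lists of such stretches exist. No such list, gene annotation or sequence of GRCh37 was used here, and the regions are given by position only.

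The 4 libraries held between 16209985 and 24439463 filtered tags. Away from the gaps, 2.00% of the autosomal regions (150 of 7503, 1.69 to 2.34) were called in all 4 lists, and near the gaps 15.8% were (199 of 1260, 13.8 to 17.9). The other regions away from gaps comprised 7005 called in 1 list, 251 in 2 lists and 97 in 3. Peaks in the 150 regions made up 4.78% and 3.31% of the rows of the control and edited ARID3B lists and 10.4% and 8.30% of those of the KDM4C lists. They held between 9.64% and 13.8% of the tags in peaks of a library, and between 0.0641% and 0.0759% of all its filtered tags.

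The 150 regions had peaks of very different depth. The smallest peaks had 11, 10, 9 and 9 tags (in the order control then edited cells for ARID3B, then control then edited cells for KDM4C, which is kept for all sets of 4 values). Medians were 43.0, 40, 29.5 and 28.0 tags, and 25 regions had at least 100 tags in each library. In 13 regions no library reached 20 tags. Fold enrichment, the authors' value for the summit of a peak over the local background of the same library, had medians of 12, 13.8, 12.8 and 13.2. In 25 regions it was at least 20 in every library, and in 12 it stayed under 5 in every library.

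**Figure D1:**
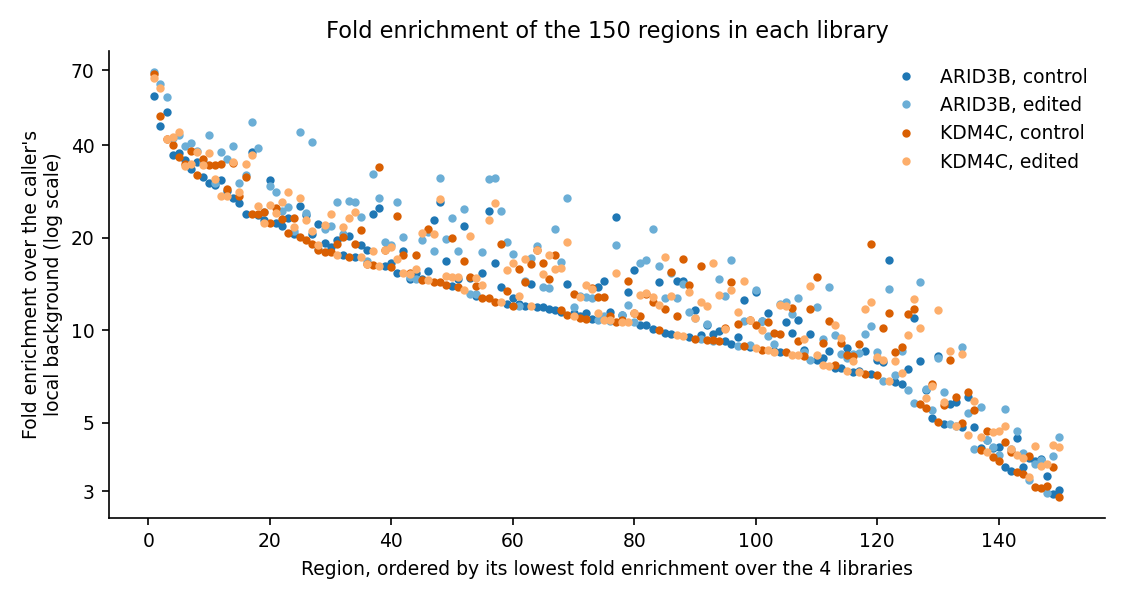
Fold enrichment (log scale) for each of the 150 regions, ordered along the x axis by the lowest of their 4 values, with 1 point for each library. The 4 points of a region lie close together next to the range over regions, which runs from 2.88 to 69.1.

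The region with the highest enrichment lay on chromosome 3 from 196625495 to 196625957, on the long arm. It held 172, 177, 163 and 155 tags. Its fold enrichment was 57.7, 69.1, 68.0 and 66.0, and all 4 intervals of the ratios between libraries included 1. The summit, the highest pile of tags, reached 144, 142, 140 and 138 tags. Because 1 tag was kept per position and strand and tags were extended to the fragment length, a pile could not exceed 172, 158, 164 and 190 tags in these libraries. The region thus stood at 83.7%, 89.9%, 85.4% and 72.6% of that ceiling. The room left for a higher pile was limited, least in the edited KDM4C library and most in the edited ARID3B library.

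Next in order came chromosome 6 from 119558374 to 119558759. It had 37, 48, 34 and 51 tags and fold enrichments of 46.2, 63.3, 49.7 and 61.3. Both edited libraries lay above both control libraries here, and the ratio of edited to control tags, each divided by the filtered tags of its library as in all ratios here, was 1.52 (0.969 to 2.40) for ARID3B and 1.91 (1.22 to 3.04) for KDM4C. On chromosome 12 from 20704343 to 20704654 the tags numbered 45, 53, 27 and 31, with fold enrichments of 51.2, 57.3, 41.7 and 41.8. There the ARID3B libraries had more tags than the KDM4C libraries, at ratios of KDM4C to ARID3B of 0.709 (0.423 to 1.17) in control and 0.753 (0.467 to 1.20) in edited cells, and both intervals included 1.

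Among the first 10, chromosome 8 from 70602132 to 70602617 had 91, 107, 74 and 100 tags at folds of 37.6, 43.2, 36.5 and 44.1. Chromosome 10 from 98561141 to 98561710 had 125, 106, 73 and 92 tags at folds of 35.3, 38.2, 32.0 and 37.9. Chromosome 5 from 71146655 to 71147060 had 59, 75, 52 and 53 tags at folds of 30.1, 43.1, 34.5 and 37.7. The other 4 all lay on chromosome 9, within 5 Mb of its wide gap, and are described with their cluster. All 25 regions with a fold of at least 20 in every library were at most 1000 bp long.

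Shorter and longer regions differed in their values, and the limit between them, 1000 bp, was chosen with those values known. The merged length ran from 232 to 6505 bp with a median of 551.5 bp. The 112 shorter regions had median fold enrichments of 14.6, 18, 14.7 and 15.5 and a median local background of 1.58, 1.71, 1.52 and 1.69 times the genome mean. In the 38 longer ones the folds were 6.22, 7.42, 6.93 and 7.29 and the background 4.33, 5.02, 3.86 and 4.82. The background was recovered from the deposited tag counts and scores, and the tags of a long peak count toward its own background in a window of 10 kb. It was at least 5 in every library at 16 regions, 15 of them over 1000 bp, and under 2 in every library at 54 regions, none of which was that long. Over the 150 regions, length had a Spearman rho of -0.62 with the median fold and of 0.77 with the median background, values that share the same peak calls.

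**Figure D2:**
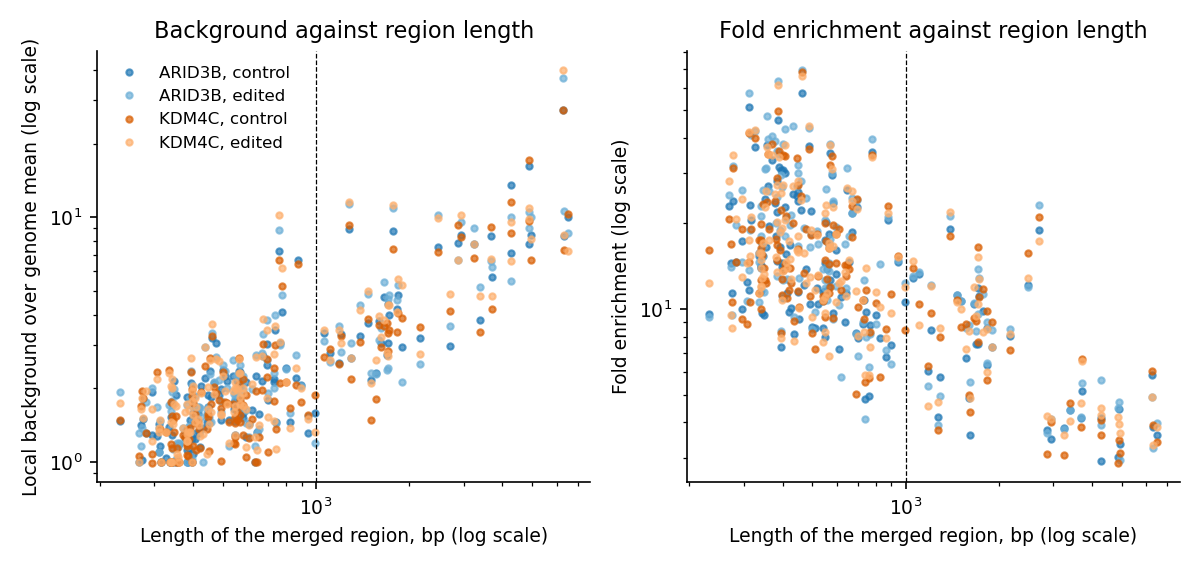
Local background relative to the genome mean (left) and fold enrichment (right) against the length of the merged region, all on log scales, with 1 point per region and library and a dashed line at 1000 bp. The median background was higher and the median fold lower in the long regions in all 4 libraries, with exceptions among single regions; regions whose background could not be recovered are left out on the left.

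Some of the long regions with low folds lay close to others. On the long arm of chromosome 1, 3 of them lay side by side. The first, from 161414191 to 161417439, had 360, 335, 248 and 239 tags. From 161418561 to 161424873 there were 609, 627, 289 and 273 tags, and from 161434724 to 161439657 there were 436, 410, 234 and 260. In each of the 3 both ARID3B libraries had more tags than both KDM4C libraries. The ratio of KDM4C to ARID3B was lowest in the second, at 0.561 (0.486 to 0.647) in control and 0.561 (0.485 to 0.647) in edited cells, and highest in the first, at 0.815 (0.690 to 0.960) and 0.919 (0.775 to 1.09). In the second the peaks covered 6129, 6313, 3240 and 3874 bp, so the KDM4C peaks were the shorter ones. Per kb of peak it held 99.4, 99.3, 89.2 and 70.5 tags. These densities, unlike the ratios, are not divided by depth, and the KDM4C libraries were the less deep ones in both kinds of cells. A further 3 long regions lay on the short arm of chromosome 5, from 17517623 to 17522517, from 17583544 to 17586482 and from 17597165 to 17598439. Their fold enrichment stayed between 3.47 and 4.72, and their background ran from 7.79 to 11.5 times the genome mean.

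The most tags of all lay on chromosome 18 from 105590 to 111863, close to the end of the short arm. This region had 2396, 2684, 2005 and 2265 tags, or 403.8, 446.8, 401.6 and 361.0 per kb of peak. Its background was 27.4, 37.2, 27.4 and 39.8 times the genome mean, and the fold enrichment was 5.86, 4.89, 6.05 and 4.89. The 4 summits lay within 39 bp of each other in spite of its length, and stood at 72.7%, 70.2%, 63.4% and 58.4% of the ceiling on height. Chromosome 10 from 135499284 to 135501762, at the end of the long arm, was alike in that its 4 summits lay within 8 bp. It had 525, 592, 395 and 471 tags.

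Many of the regions lay near the ends of chromosomes. Of the 150, 33 (22%) lay within 3 Mb of a chromosome end, and 22 of those within 1 Mb, while such ends make up 4.53% of the span that the rule allowed. The same share among regions called in fewer lists is not given here, so nearness to ends is not shown to be particular to the 150. The closest was chromosome 5 from 9944 to 11837, with 205, 135, 243 and 280 tags. Both KDM4C libraries stood above both ARID3B libraries there, with a ratio of 1.4 (1.16 to 1.70) in control and 2.67 (2.17 to 3.31) in edited cells. At the end of the short arm of chromosome 11 the order differed between close neighbours. From 964745 to 965352 there were 22, 27, 38 and 25 tags, with most in the control KDM4C library, and from 1016570 to 1018076 there were 100, 61, 21 and 28, with most in the ARID3B libraries. In the second of these, the ARID3B peaks covered 1390 and 956 bp and the KDM4C peaks 433 and 407 bp, and per kb of peak the 4 values were 71.9, 63.8, 48.5 and 68.8 tags.

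The regions were spread over 21 of the 22 autosomes and 33 arms, with 101 of them on the 12 arms that held at least 5. Chromosome 21 had none. Among these 12 arms, the long arm of chromosome 9 had 17, or 23.4 per 100 Mb, followed by the long arms of chromosome 17 with 9 (17 per 100 Mb), chromosome 1 with 13 (12.5) and chromosome 8 with 12 (12.4). Many lay close together, since 71 had another of the 150 within 1 Mb and 24 had one within 10 kb, while 31 had none within 10 Mb.

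The densest stretch, on chromosome 9 from 69703538 to 70327667, held 11 regions in less than 1 Mb. It lies between 4.20 and 4.83 Mb from the gap, just beyond the limit of the rule. Its leading region, from 69710655 to 69711433, had 246, 259, 276 and 275 tags at folds of 35.8, 39.7, 34.7 and 34.3, and the 4 summits lay within 8 bp. From 70076519 to 70076845 there were 35, 27, 34 and 33 tags at folds of 37.1, 42.2, 39.9 and 42.6. From 70327278 to 70327667 there were 29, 33, 30 and 35 tags at folds of 31.6, 35.2, 35.9 and 34.4. Before division by depth, these 3 had nearly even counts in the 4 libraries. After it, the leading region was higher in edited cells, at ratios of 1.23 (1.03 to 1.47) for ARID3B and 1.27 (1.07 to 1.51) for KDM4C. KDM4C exceeded ARID3B there at 1.33 (1.11 to 1.58) in control and 1.37 (1.15 to 1.63) in edited cells. For the other regions of these 3, every such interval included 1.

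The other 8 of the cluster were weaker, with 10 to 45 tags. The 4 neighbours between 69993081 and 70010153 had 11 to 17 tags in the control and 10 to 21 in the edited ARID3B library, and 15 to 26 and 12 to 17 with KDM4C. In control cells the KDM4C library had more tags than the ARID3B library in each of the 4 although it was less deep, yet each interval of the ratio included 1. The region from 70103059 to 70103787 had 35, 37, 26 and 10 tags, with the edited KDM4C library alone low. There the ratio of KDM4C to ARID3B was 0.878 (0.508 to 1.5) in control and 0.348 (0.154 to 0.714) in edited cells. On the other side of the gap, chromosome 9 from 42818972 to 42819342 had 30, 39, 33 and 28 tags at folds of 33.5, 40.6, 38.2 and 34.7.

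The rule has a limit on distance and one on the lists. The nearest to a gap that it kept was chromosome 9 from 68503299 to 68503735, at 3 Mb, with 18, 25, 15 and 21 tags, followed by chromosome 8 from 49884274 to 49888545, at 3.08 Mb, with 587, 438, 504 and 298. Just left out were chromosome 9 from 68425287 to 68427476 with 228, 237, 107 and 190 tags and from 68423702 to 68425187 with 146, 132, 127 and 112. In 29 of the 150 the lowest score was under 60, against a cutoff of 50. Of the 97 regions away from gaps that missed 1 list, 50 missed the control KDM4C list, 30 the edited KDM4C list, 9 the control ARID3B list and 8 the edited ARID3B list. Ranked by the lowest fold of the lists that called them, the first of the 97 lay on chromosome 8 from 9424147 to 9424462. It lacked a control ARID3B peak, and the other lists gave folds of 18, 19.1 and 17.5 from 16, 15 and 11 tags. Other regions among the 97 had more tags.

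The rule did not use the position of the summits, but since rows had to overlap, the length of a region bounds how far its summits can lie apart. Between the outermost of the 4 summits of a region the median distance was 39.5 bp, and it was at most 50 bp in 82 regions and over 1000 bp in 10. Among the 112 shorter regions the median was 30.5 bp and 74 were within 50 bp, against 596.0 bp and 8 of 38 in the longer ones, a split by length that by itself sets much of this difference. In the regions called in all 4 lists within 3 Mb of a gap, a median of 20 bp was found, and 141 of 199 were within 50 bp. Taken in pairs of libraries over the 112, the median distance was 8 bp between the ARID3B libraries of control and edited cells and 13 bp between the KDM4C libraries. The 3 pairs that include the edited KDM4C library had medians of 13, 16 and 19 bp, and the other 3 pairs had 8, 10 and 10 bp. That library also had the largest fragment length in the caller's header (95 bp, against 79 to 86 bp) and the shortest tags (72 bp, against 75 bp). The part of either in the result was not tested. Over regions of all lengths, the median between the ARID3B libraries was 13 bp in the 150 and 36.0 bp in 211 regions away from gaps that did not reach all 4 lists, and between the KDM4C libraries it was 17 bp and, over 25 regions, 18 bp.

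**Figure D3:**
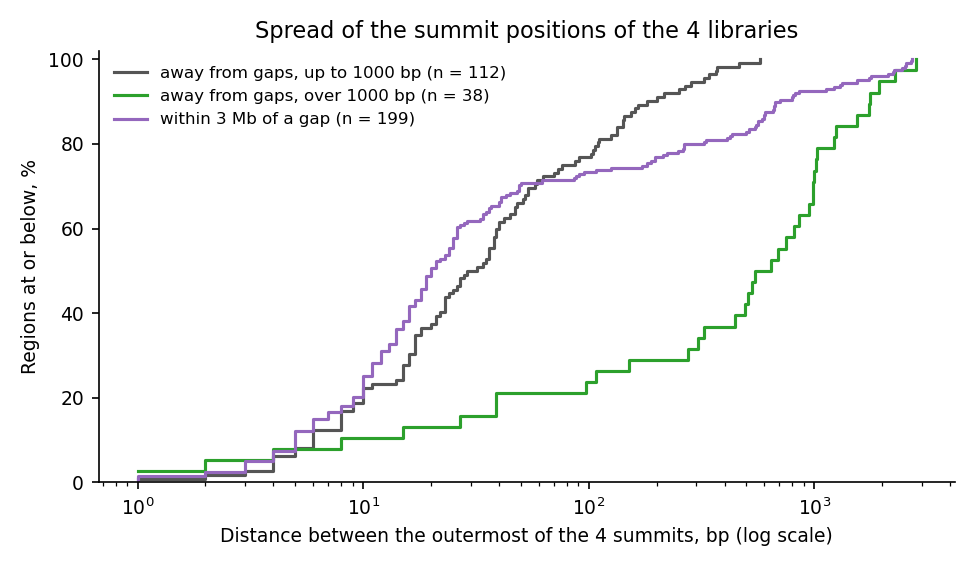
Share of regions (y axis, %) whose 4 summits lie within the distance on the x axis (bp, log scale), for the 112 regions up to 1000 bp, the 38 longer ones and the 199 regions within 3 Mb of a gap. The 4 summits of the shorter regions mostly lie within 50 bp, and those of the longer ones mostly do not.

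Edited cells were then set against control cells. With the ARID3B antibody the 150 regions were higher in edited cells by a small margin relative to filtered tags, with a median log2 ratio of 0.22 and higher values at 96 of 150. With the KDM4C antibody the median was 0.40 and 123 of 150 were higher. Before division by depth, 69 regions had more ARID3B tags and 78 more KDM4C tags in edited cells. Peak length moved with these values. The peaks had median lengths of 456.5, 410.0, 366.5 and 437.0 bp, and per kb of peak the medians were 0.25 for ARID3B and 0.14 for KDM4C. By summit height, where it was recovered, they were 0.19 and 0.42. A region had to be called in the edited ARID3B library to be included, so these values do not bear on sites where its signal was lost. The 199 regions near gaps were also mostly higher in edited cells. Their median log2 ratios were 0.29 for ARID3B (166 higher) and 0.30 for KDM4C (165 higher). Away from gaps, regions called in 3 lists had medians of 0.07 and 0.41, and those in 2 lists -0.05 and 0.43, where both rows were present.

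Past 1.5-fold, ARID3B was higher in edited cells at 24 of the 150 (16%) and lower at 7 (4.67%). Over all 778 regions with a row in both ARID3B lists, 14% were higher and 7.84% lower. KDM4C was higher past that fold at 51 (34.0%) and lower at 8 (5.33%), against 25.9% and 3.14% of the 509 regions with a row in both KDM4C lists. As the rule used these lists, nothing is read from the comparison of shares. Both antibodies were higher past 1.5-fold at 12 regions and both lower at 1. In direction alone, 85 regions were higher with both antibodies, 16 lower with both, 38 lower with ARID3B and higher with KDM4C, and 11 the reverse. The Spearman rho between the log2 ratios of the antibodies was 0.28 over 150 regions, a value that the division by depth does not change.

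**Figure D4:**
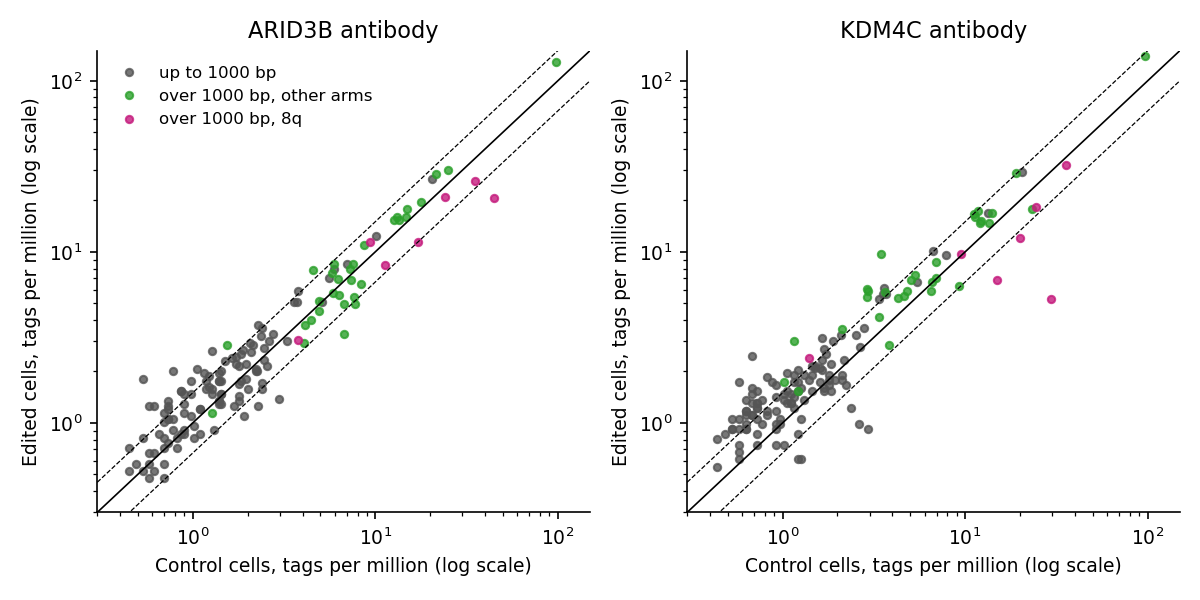
Tags per 1000000 filtered tags in edited (y axis) against control cells (x axis), both on log scales, for the ARID3B (left) and KDM4C (right) antibody, with 1 point per region. The solid line marks equal values and the dashed lines 1.5-fold; 24 and 51 regions lie above the upper dashed line and 7 and 8 below the lower one, of which 1 and 3 are on the long arm of chromosome 8.

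The only region lower past 1.5-fold with both antibodies was chromosome 3 from 111274095 to 111275088. It had 73, 29, 61 and 15 tags, and both control libraries stood well above both edited ones. The ratio of edited to control was 0.465 (0.292 to 0.724) for ARID3B and 0.314 (0.165 to 0.558) for KDM4C. The peaks covered 994, 527, 847 and 403 bp, and per kb they held 73.4, 55.0, 72.0 and 37.2 tags. These densities are not divided by depth, and the edited libraries were the less deep ones. After that division the order still held, but the difference was much smaller than in tags, and small for ARID3B.

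Among regions with a sum of at least 50 tags over the libraries compared, the highest ARID3B ratio was found on chromosome 14 from 36417188 to 36417823, with 13, 38, 12 and 28 tags. Both edited libraries were above both control libraries there, at ratios of 3.42 (1.78 to 7) and 2.98 (1.47 to 6.42). Per kb of peak they held 39.2, 66.7, 56.6 and 44.0 tags, not divided by depth. After that division the KDM4C density was about level between edited and control cells. Chromosome 17 from 31149598 to 31149995 followed, with 19, 42, 11 and 17 tags, and chromosome 20 from 46523373 to 46524014, with 31, 55, 29 and 29. The ARID3B ratios were 2.59 (1.47 to 4.71) and 2.08 (1.31 to 3.34), while both KDM4C intervals included 1.

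By the same minimum, the highest KDM4C ratio lay on chromosome 2 from 135874891 to 135875534. The tags numbered 67, 69, 14 and 40, so that the control KDM4C library alone was low. Edited to control gave 3.64 (1.94 to 7.25), and ARID3B gave 1.21 (0.849 to 1.71). Its summit height was 27.0, 25, 9 and 17 tags, in the same order for KDM4C. The mirror image was seen on chromosome 2 from 33141295 to 33141738, with 60, 57, 54 and 16 tags. Here the edited KDM4C library alone was low, at a ratio of 0.378 (0.202 to 0.670), with 28.0, 26.0, 29.0 and 10 tags at the summit. The ARID3B intervals included 1 in both regions.

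Other large KDM4C ratios came with a change in the length called. On chromosome 2 from 133027657 to 133029435 the tags were 152, 145, 72 and 157, and the KDM4C peak covered 347 bp in control and 1451 bp in edited cells. Its summit heights were 67.0, 75, 55.0 and 53.0 tags. Those for KDM4C were nearly level before division by depth, while the edited KDM4C library was the less deep one. That region belongs to a group on the long arm of chromosome 2, with neighbours from 133011787 to 133013254 (120, 94, 110 and 119 tags) and from 133023015 to 133023775 (88, 107, 70 and 86 tags). On chromosome 9 from 43048908 to 43050092 there were 31, 24, 24 and 49 tags on peaks of 503, 321, 426 and 1135 bp.

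The long arm of chromosome 8 had the lowest ratios among the 12 arms. Summed over its 12 regions, ARID3B tags numbered 3800 in control against 2395 in edited cells, which after division by depth is a ratio of 0.738 (0.701 to 0.777). For KDM4C the sums were 2989 and 1628, at a ratio of 0.694 (0.653 to 0.738). After division by depth, it was the only one of the 12 arms with at least 5 regions where either sum was lower in edited cells. The sums rest on few long regions, and the median over the 12 gave 0.892 for ARID3B and 0.984 for KDM4C. Per kb of peak the ratios were 0.842 and 0.953. Among arms with fewer regions, ARID3B was also lower on the short arm of chromosome 19, at 0.628 (0.439 to 0.888), and on the long arm of chromosome 16, at 0.711 (0.570 to 0.883), each with 2 regions. Per kb of peak these 2 ratios were 1.06 and 0.771, so the first was no longer below 1.

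Of the 12, 6 lay between 126601154 and 129470853, a stretch chosen with the values known and known to hold the MYC oncogene. Of these 6, 5 were long. From 126601154 to 126607658 there were 863, 542, 613 and 86 tags on peaks of 6505, 6030, 6293 and 1027 bp. From 128268847 to 128273117 there were 418, 239, 412 and 196 tags, and from 128388349 to 128392036 there were 275, 175, 307 and 111. In these 3 regions each edited library lay below the control library of its antibody. From 128333013 to 128335878 there were 229, 237, 197 and 158 tags, and from 129361689 to 129366557 there were 1089, 432, 737 and 524. The first of these was not lower in edited cells once divided by depth (1.21 and 1.02), and in the second the ARID3B ratio was 0.464 (0.414 to 0.520) and the KDM4C ratio 0.907 (0.809 to 1.02).

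Together the 5 long regions had 2874 and 1625 ARID3B tags, a ratio of 0.662 (0.622 to 0.704), and 2266 and 1075 KDM4C tags, a ratio of 0.605 (0.562 to 0.651). The density was 146.5, 95.4, 118.7 and 86.4 tags per kb of peak, and per kb the ratios were 0.762 and 0.927. Local background ranged from 7.13 to 16.2 times the genome mean in control and from 5.51 to 10.5 in edited ARID3B libraries, and from 8.60 to 17.2 and from 6.63 to 10.9 with KDM4C. With either antibody it was lower in edited cells at all 5, also where the ratios of tags were 1.21 and 1.02. Over the 150 regions it was lower in edited cells at 45 of 140 with ARID3B and at 48 of 145 with KDM4C. The sixth region, from 129470395 to 129470853, was short and had 35, 31, 35 and 26 tags, with log2 ratios of 0.05 and -0.08. The part of local background in the result was not tested.

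**Figure D5:**
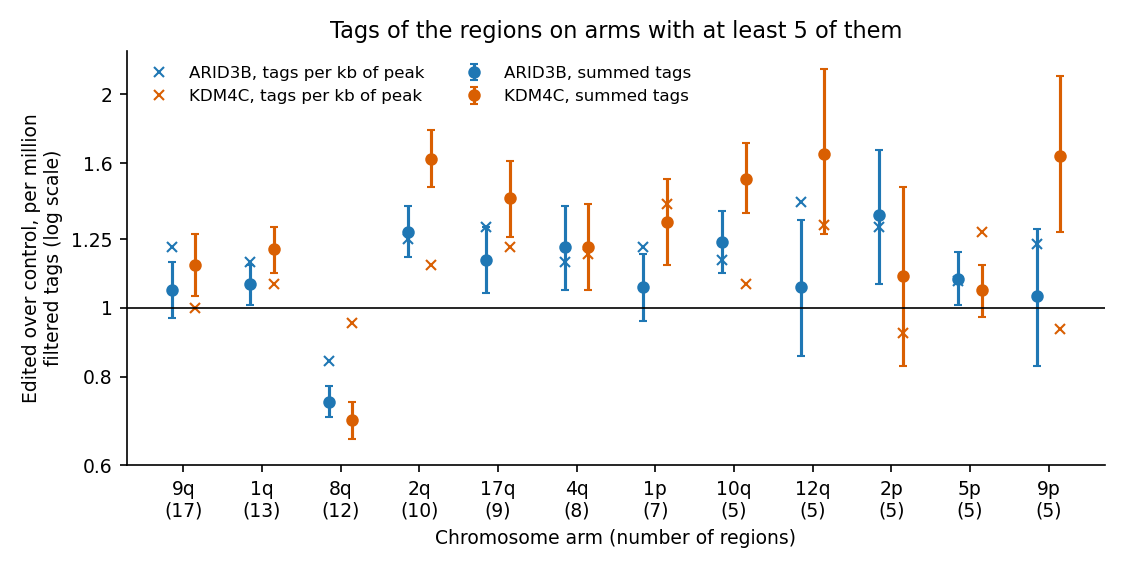
Ratio of edited to control tags, divided by filtered tags (log scale), summed over the regions of each chromosome arm with at least 5 of them, with exact 95% intervals for counting error; crosses give the same ratio per kb of peak. Both sums on 8q lie below 1, at 0.738 and 0.694, and the sums on the other arms lie at 1.04 or above, although per kb KDM4C lies at 0.933 on 9p and 0.923 on 2p.

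On the other 11 arms the ratios of the sums were above 1, with intervals that included 1 on some. The highest ARID3B ratio was 1.35 (1.08 to 1.67) on the short arm of chromosome 2, and the lowest after 8q was 1.04 (0.829 to 1.29) on the short arm of chromosome 9. KDM4C ran from 1.06 (0.970 to 1.15) on the short arm of chromosome 5 to 1.65 (1.27 to 2.17) on the long arm of chromosome 12. Per kb of peak, KDM4C on the short arm of chromosome 9 changed from 1.64 to 0.933, and on the short arm of chromosome 2 from 1.11 to 0.923. Without the region with most tags there, the value on the short arm of chromosome 2 was 1.86.

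The last comparison sets the antibodies side by side in the same cells. In control cells KDM4C had fewer tags than ARID3B relative to depth, with a median log2 ratio of -0.17 and a higher value at 56 of 150. In edited cells the median was 0.01, with 76 of 150 higher. Past 1.5-fold, KDM4C was lower at 37 regions (24.7%) and higher at 11 (7.33%) in control cells, against 15.8% and 13.2% of all 544 regions with both rows. In edited cells it was lower at 14 and higher at 14 (9.33% each), against 7.45% and 13.8% of 644. The value in control cells turned to 0.07 per kb of peak, where the KDM4C peaks were the shorter ones. The same ratio at the 199 regions near gaps had a median of 0.30 in control and 0.29 in edited cells, and per kb of 0.21 and 0.06, and the difference between the classes was not tested.

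By the same minimum, the lowest ratio of KDM4C to ARID3B in control cells, 0.247 (0.128 to 0.444), was that on chromosome 2 from 135874891, given above, and in edited cells that region was at 0.747 (0.493 to 1.12). The next, on chromosome 11 from 1016570 to 1018076, was at 0.248 (0.147 to 0.400) in control and 0.591 (0.364 to 0.939) in edited cells. In edited cells the lowest was 0.204 (0.161 to 0.257), on chromosome 8 from 126601154, where the edited KDM4C peak was short. In the other direction, chromosome 16 from 1075173 to 1075791 had 25, 17, 34 and 38 tags. KDM4C exceeded ARID3B there at ratios of 1.61 (0.932 to 2.81) and 2.88 (1.59 to 5.44). On chromosome 1 from 2584151 to 2587862 there were 319, 333, 143 and 114 tags, and KDM4C was at 0.530 (0.432 to 0.648) and 0.441 (0.353 to 0.547) of ARID3B. The peaks covered 3352, 3712, 2240 and 1629 bp, and the density was 95.2, 89.7, 63.8 and 70 tags per kb. These densities are not divided by depth, and the KDM4C library was the less deep one in both kinds of cells. After that division the KDM4C density stayed lower than that of ARID3B in control cells and was about level with it in edited cells.

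The likeness of the libraries over the 150 regions was high in fold enrichment. Spearman rho was 0.92 between the ARID3B libraries and 0.88 between the KDM4C libraries, and 0.88 and 0.91 between the antibodies in control and edited cells. In tags per kb of peak the values were 0.68, 0.76, 0.69 and 0.79. The values for the same antibody and for different ones thus lay in one range. All libraries share the regions and the genome they were placed on.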

How the data were processed

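The deposited data are 4 peak lists, 1 per library. Per the file headers, MACS 1.4.2 was run by the authors on each library alone, with no control file and a p-value cutoff of 1e-05. The same headers give 10 kb as the range for the local background and a single tag as the maximum at a position. The submitters' processing notes name BWA 0.7.12 and the build GRCh37. Deposited tag counts are whole numbers per peak, per the file headers. The deposited score is the negative log10 of the p-value multiplied by 10, which puts the cutoff at 50, and scores stop at 3100. The deposited fold enrichment is a ratio to local background.

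Rows were merged on 1 bp overlap. Tags of all rows of a list in a region were summed and divided by filtered tags. Score and summit are those of the row with the highest score, and fold is the highest in the region. Local background solves the Poisson probability of tags and score, and height is fold times the background expected over 1 fragment length. Gap positions are rounded ones of GRCh37, and chromosome lengths of that build were entered from general knowledge. Background under 0.99 of the genome mean, or a score at the cap, counted as not recovered (1.04% to 1.54% of rows). Start, end and summit positions were used as deposited, per the file headers. Each ratio has an exact 95% interval, from the binomial share of a count in the sum of both. Steps were tested on simulated data. Python 3.11.15 and scipy 1.17.1 were used.

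The regions, the rule and the comparisons were chosen with earlier results of these data known. Named regions are those with the highest and lowest fold, the extreme ratios between cells and between antibodies among regions with at least 50 tags in both libraries together, those at the limits of the rule, the longest, those with most tags and the densest 1 Mb. Further neighbours were added after their values were seen. Samples were grouped by title.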

Additional observations from a re-analysis of the deposited data

Results flagged for a closer look

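At 1 of the 150 regions, on chromosome 1 from 2627804 to 2629461, the summed tags of the antibodies moved in opposite directions past 1.5-fold between control and edited cells. The log2 ratio of edited to control was -1.02 for ARID3B and 0.72 for KDM4C. Tags numbered 164 in control and 69 in edited cells for ARID3B, and 44 and 57 for KDM4C; further values follow this order. The peaks covered 1617, 650, 586 and 582 bp, and their density was 101.4, 106.2, 75.1 and 97.9 tags per kb. The 4 summits lay within 2 bp, with heights of 38.0, 35.0, 21 and 26.0 tags. These densities and heights are not divided by depth, and the edited libraries were the less deep ones. After that division neither was lower in edited cells with either antibody. The opposite directions are thus those of tags summed over called peaks of unlike length. With 1 library in each group, the difference in tags was not tested.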

How the results depend on the processing

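Of 148 recomputed values for 30 results, 107 stayed within their interval (for the number of regions, within 1.5 times), 39 moved by more, and 2 changed direction where the interval had been on one side of no difference. Some values whose interval included no difference crossed it too. Among them were ARID3B on 12q (0.922) and 9p (0.936) by the median and on 1p without its top region, KDM4C on 2p per kb (0.923), and KDM4C over ARID3B in edited cells per kb (-0.03) and over 5 Mb from a gap (-0.04). The causes were not tested beyond what each alternative changes by its construction. Requiring a score of at least 100 in every list left 66 regions, and dropping the requirement of 1 list gave 159 (control ARID3B), 158 (edited ARID3B), 200 (control KDM4C) and 180 (edited KDM4C). Division by total tags gave medians of 0.28 for ARID3B and 0.57 for KDM4C (edited over control, log2) and -0.29 for KDM4C over ARID3B in control cells. Per kb of peak, KDM4C gave 0.14, and KDM4C over ARID3B in control cells changed direction to 0.07. With summit heights, KDM4C over ARID3B in edited cells gave 0.16. The summit spread was 30.5 bp in regions up to 1000 bp.

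For the arms, the ARID3B ratios per kb were 1.22 on 9q, 1.16 on 1q, 0.842 on 8q, 1.22 on 1p and 1.41 on 12q. The median over regions gave 1.17 on 9q, 0.892 on 8q and 1 on 10q. Without the region with most tags they were 0.848 on 8q, 0.95 on 1p and 1.06 on 10q. The KDM4C ratios per kb were 1 on 9q, 1.08 on 1q, 0.953 on 8q, 1.15 on 2q, 1.22 on 17q, 1.08 on 10q and 1.28 on 5p, and 9p changed direction to 0.933. By total tags they were 1.29 on 9q, 1.36 on 1q, 0.781 on 8q, 1.83 on 2q, 1.71 on 10q and 1.19 on 5p. The median over regions gave 1.33 on 1q, 0.984 on 8q, 1.77 on 2p and 1.27 on 5p. Without the region with most tags they were 0.625 on 8q, 1.82 on 2q, 1.86 on 2p and 1.26 on 5p.

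Sums per kb, lists not required, short regions only and regions without 8q were alternatives chosen after seeing the data. No paired analysis was possible because each group held 1 library and no test was made. For the same reason no library was left out of a comparison between groups. Peaks of 9 to 20 tags give wide intervals, and differences in single short regions were often not detectable at this depth.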
